A study of Danio rerio with 6 samples.

Results

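The miR-146 family was represented by 2 of the 434 annotated miRNA loci of the zebrafish genome, mir146a (ENSDARG00000083310) and dre-mir-146b-1 (ENSDARG00000083360). They were chosen by their identifiers, with their response to injury in these same libraries known, so the levels, ratios and fold changes of the 2 loci upon injury are descriptions and carry no test. No other locus with a symbol of this family was found among the 331 loci that a symbol table named. Small RNAs had been sequenced from whole telencephalic hemispheres of adult zebrafish, with 3 libraries from healthy, untreated hemispheres (control) and 3 from hemispheres wounded with a needle (injured). Per the study's methods, RNA was taken 5 days after the lesion and each hemisphere was processed on its own. The study describes the opposite, uninjured hemisphere as control for its mRNA libraries and an identical preparation for small RNAs, whereas the labels call the controls healthy. Control and injured libraries may therefore share fish, although no source says that same-numbered libraries do. The sources used here name no strain, age or sex. The study calls the replicates of its mRNA libraries biological. None of the sources says that the small RNA replicates of a group came from separate fish, so a spread between libraries may be partly technical.

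miRNAs are short RNAs that pair with messenger RNAs mainly through their seed, a stretch of bases near the 5′ end, and lower the output of their targets. In mammals, mature miR-146a and miR-146b have the same seed and differ at a few bases near the 3′ end, so both can repress the same messengers. The best known of these encode TRAF6 and IRAK1, adaptor and kinase of Toll-like receptor and interleukin-1 receptor signalling. Transcription of mammalian miR-146a is itself switched on by NF-κB, and the family is therefore known as a brake on innate immune signalling in leucocytes and glia. RefSeq annotates assembly GRCz12tu, a later build than that of the counts, and in it the zebrafish loci are not neighbours and lie on different chromosomes. There, mir146a stands next to sufu, which encodes a repressor of Hedgehog signalling, and dre-mir-146b-1 stands between the protein-coding gene pcyox1l and a long non-coding RNA gene.

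The control libraries held 2475462 to 4008607 reads at miRNA loci and the injured libraries 11473850 to 14545864, so the groups differed in depth without overlap. The miR-9 loci, which mark neural progenitors, took 95658 to 109722 reads per 1000000 at miRNA loci (RPM) in the 6 libraries. The 7 loci of neuronal miR-124 together reached 56.8 to 65.8 RPM. The authors' limit on mapping quality can undercount loci that share a mature sequence. Its part in these sums was not tested, so they need not be the levels of miR-124 or miR-9 in the tissue. Intervals given for single libraries are exact binomial 95% intervals and cover counting error only.

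mir146a was the locus of the pair with the larger difference. It had 2246, 4477 and 2219 reads in control 1, 2 and 3, which are 855, 1117 and 896 RPM. In injured 1, 2 and 3 it had 77548, 48885 and 53602 reads, or 5331, 4240 and 4672 RPM. All injured libraries lay above all control libraries, and the lowest injured library had 3.80 times the level of the highest control library. The means were 956 ± 141 RPM in control and 4748 ± 550 RPM in injured hemispheres (SD, n = 3 each), a ratio of 4.97. In whole hemispheres, more cells of a type and more RNA per cell cannot be told apart. Relative to the control mean, the injured libraries stood at 5.58, 4.43 and 4.89. In edgeR's fit across 188 expressed loci, with TMM scaling (trimmed mean of M values), the log2 fold change was 2.28 (SE 0.13, n = 3 each).

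dre-mir-146b-1 was less abundant than mir146a in each library and differed less between the groups. It had 1357, 2384 and 1401 reads in control 1, 2 and 3, or 517, 595 and 566 RPM. In injured 1, 2 and 3 it had 14508, 11060 and 10870 reads, or 997, 959 and 947 RPM. The groups did not overlap here either, and the lowest injured library had 1.59 times the level of the highest control library. The means were 559 ± 39.5 RPM in control and 968 ± 26.1 RPM in injured hemispheres (SD, n = 3 each), a ratio of 1.73. The log2 fold change in the edgeR fit was 0.75 (SE 0.08, n = 3 each). Under upper-quartile scaling it was 0.65, with a shift of −0.11 in the median locus relative to TMM. Of the 188 expressed loci, 32 (17.0%) had all injured libraries above all control libraries in RPM, and both miR-146 loci were among them by the choice of members.

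**Figure D1:**
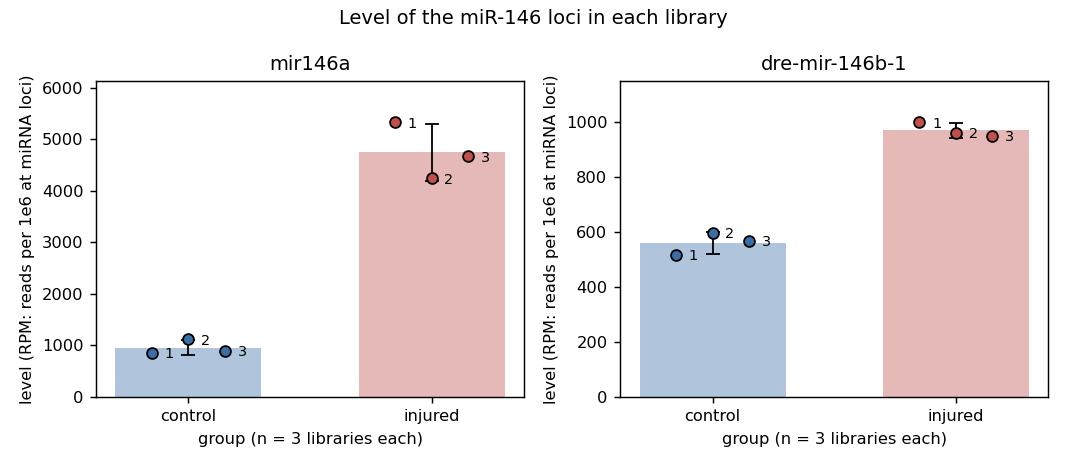
Level of mir146a (left) and dre-mir-146b-1 (right) in RPM, with linear axes of different range that start at 0. Bars are means of 3 libraries, error bars are SD, and points are single libraries labelled with their replicate number. The injured libraries sit between 4240 and 5331 RPM for mir146a and between 947 and 997 RPM for dre-mir-146b-1, above all control libraries in both panels.

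In the order of all 434 loci by reads, mir146a moved from rank 52 to 56 in the control libraries to rank 30 or 31 in the injured libraries. dre-mir-146b-1 moved from rank 65 to 67 to rank 55 to 58. Among the expressed loci, mir146a had the fifth highest log2 fold change, and dre-mir-146b-1 was at rank 14. Over all 188 loci the median was 0.03. Measured as RPM gained, which favours abundant loci, mir146a was at rank 4 and dre-mir-146b-1 at rank 18 of the expressed loci. The loci ahead of mir146a in log2 fold change were dre-mir-182, MIR96, MIR183 and dre-mir-31, and of these the first 3 had overlapping groups.

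**Figure D2:**
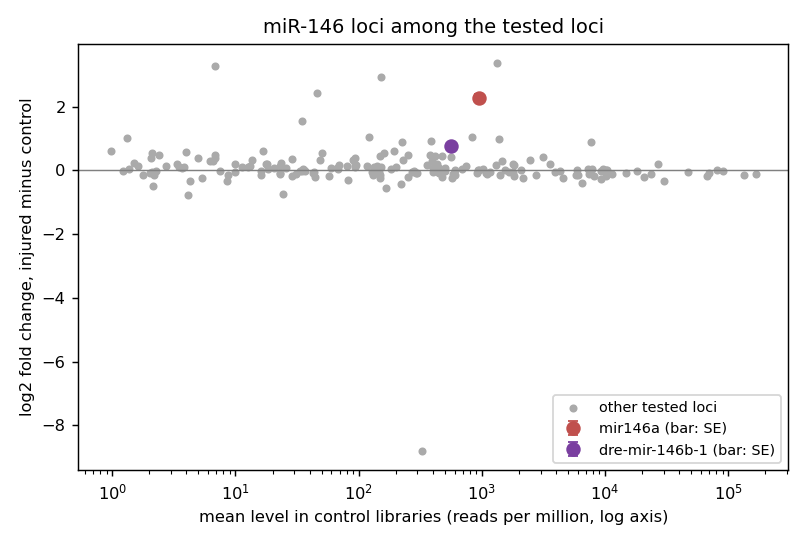
Log2 fold change (injured minus control, edgeR) against the mean control level in RPM on a log axis, for the 188 expressed loci. The red and purple points are mir146a at 2.28 and dre-mir-146b-1 at 0.75, with their SE as bars that are smaller than the symbols. Most grey points, the other loci, lie near 0.

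The ratio of mir146a to dre-mir-146b-1 reads can be read within a library without any scaling. In control 1, 2 and 3 it was 1.66 (95% interval 1.55 to 1.77), 1.88 (1.79 to 1.97) and 1.58 (1.48 to 1.69). In injured 1, 2 and 3 it was 5.35 (5.25 to 5.44), 4.42 (4.33 to 4.51) and 4.93 (4.83 to 5.03). mir146a was thus the more abundant paralogue in all 6 libraries, and the lowest ratio in an injured library was 2.35 times the highest ratio in a control library. Between sequences, such a ratio also carries any difference in how well each was captured in library preparation, so its size is not the ratio of molecules in the tissue. A capture difference that is equal in all libraries cancels between the groups.

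On the log2 scale the ratio averaged 0.77 ± 0.13 in control and 2.29 ± 0.14 in injured hemispheres (SD, n = 3 each), a difference of 1.52. This corresponds to a ratio 2.87 times higher upon injury. The spread of the ratio in the injured libraries went beyond counting error, since none of their 3 intervals overlapped. Among the controls, the interval of control 2 lay above those of control 1 and 3, which overlapped each other.

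**Figure D3:**
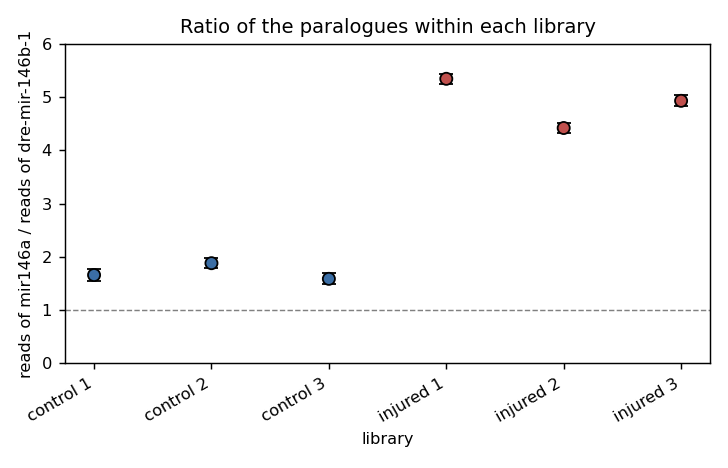
Reads of mir146a divided by reads of dre-mir-146b-1 in each library, on a linear axis from 0, with exact binomial 95% intervals. The dashed line marks equal reads at both loci. The control libraries (blue) lie between 1.58 and 1.88 and the injured libraries (red) between 4.42 and 5.35.

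Both loci together took 1372, 1712 and 1462 RPM in control 1, 2 and 3. In injured 1, 2 and 3 they took 6329, 5199 and 5619 RPM. As a share of all reads at miRNA loci the family thus made up 0.152% ± 0.0176 in control and 0.572% ± 0.0571 in injured hemispheres (SD, n = 3 each), a ratio of 3.77. mir146a supplied 63.0% ± 2.05 of the family's reads in control and 83.0% ± 1.35 in injured hemispheres (SD, n = 3 each). Its share ran from 61.3% to 65.3% in the control libraries and from 81.5% to 84.2% in the injured ones. Of the 4200 RPM by which the family mean was higher in injured hemispheres, mir146a accounted for 3792 RPM (90.3%) and dre-mir-146b-1 for 409 RPM.

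In these libraries the paralogues also differed in how much they varied within a group. The coefficient of variation of mir146a in RPM was 14.7% in control and 11.6% in injured libraries. Counting error alone would give 1.91% and 0.414%. For dre-mir-146b-1 the coefficient was 7.06% in control and 2.70% in injured libraries, where counting error would give 2.48% and 0.913%. The median locus had 9.36% in control and 9.60% in injured libraries, so mir146a lay above and dre-mir-146b-1 below the median in both groups. That median covers expressed loci of every level, those with few reads and more counting error included, and no set matched on level was used. Each coefficient rests on 3 libraries, so a difference in spread between the paralogues was not tested. In the injured libraries only 10 of the 188 expressed loci varied less than dre-mir-146b-1. Among the controls both loci were highest in control 2, then control 3, then control 1, and both were highest in injured 1 among the injured libraries. Control 2 and injured 1 were also the deepest libraries of their groups, and the part of depth in these differences was not tested. Thinning cannot test it, since reads drawn at random keep the proportions of a library apart from counting error.

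To see which loci followed a course like that of each paralogue, the log2 level of every expressed locus was centred on its own mean over the 6 libraries and compared with theirs by root mean square difference. This measure uses the same libraries as the choice of members and is a description. The locus most like mir146a was dre-mir-31 (0.19 on the log2 scale), followed by mir155 (0.43), MIR21 (0.66), dre-mir-731 (0.67) and mir222b (0.69). dre-mir-146b-1 came at place 9 of the 187 other loci, with a difference of 0.77, not far above those of MIR21, dre-mir-731 and mir222b. dre-mir-31 had 48.4, 46.9 and 42.4 RPM in control 1, 2 and 3 and 266, 271 and 221 RPM in injured 1, 2 and 3. Its level was thus far below that of mir146a, with a log2 fold change of 2.42 (SE 0.11). In mammals, miR-155 is induced in activated macrophages and lymphocytes, and miR-21 is raised in many states of inflammation and growth.

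The locus most like dre-mir-146b-1 was mir222b (0.12), followed by MIR15B (0.13), MIR26A2 (ENSDARG00000080591, 0.16), dre-mir-27e (0.16) and MIR125B1 (ENSDARG00000080032, 0.17). Seen from dre-mir-146b-1, mir146a was at place 180 of the 187 other loci. The measure depends strongly on the size of the step between the groups. A locus that hardly changed can thus stand closer to dre-mir-146b-1 than mir146a, which rose in the same direction but further. mir222b had 189, 270 and 221 RPM in control 1, 2 and 3 and 446, 423 and 431 RPM in injured 1, 2 and 3, with a log2 fold change of 0.90 (SE 0.13). It was the one locus on both lists. The loci like dre-mir-146b-1 had log2 fold changes from 0.47 to 0.90 and those like mir146a from 0.90 to 2.42. Without injured 1, only 3 of the 5 loci most like mir146a and 2 of the 5 most like dre-mir-146b-1 remained in these places. Without control 1, 3 of the 5 most like dre-mir-146b-1 remained.

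**Figure D4:**
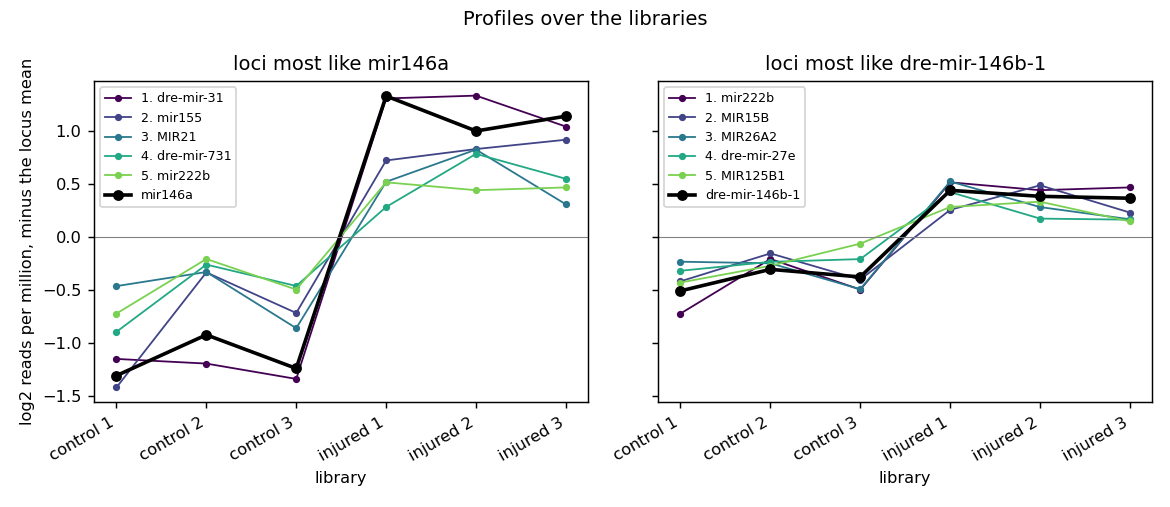
Log2 RPM of each locus minus its own mean over the 6 libraries, for mir146a (left, black) and dre-mir-146b-1 (right, black) with the 5 loci most like each in colour. Lines join libraries only as a guide to the eye, since replicates have no order. The step from control to injured is larger in the left panel than in the right one, and dre-mir-31 lies closest to mir146a.

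A list of miRNAs known in mammals to respond to or act in Toll-like receptor and NF-κB signalling was then examined beside the family. The list was chosen with earlier results of these data known, so its calls are a description and no independent support. It comprised all loci with a symbol of mir-155, mir-21, mir-132, mir-212, mir-9, mir-125b and mir-223, while mir-147, also sought, matched no symbol. Of its 17 loci, 15 had reads and 14 were expressed. In edgeR's quasi-likelihood test, adjusted over all expressed loci (Benjamini-Hochberg), 4 of the 14 rose and 0 fell. Of all 188 expressed loci, 10.6% were called higher and 2.13% lower by this test. These shares rest on 24 calls, which became 10 without control 1, control 3 or injured 3, 14 without control 2 and 31 by DESeq2. The median log2 fold change of the 14 loci was −0.0031, against 0.03 for all loci.

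The highest value on the list was that of mir155, which rose from 35.0 to 105 RPM (log2 fold change 1.54, SE 0.24; edgeR adjusted p = 0.00816). MIR21 (ENSDARG00000080484) rose from 121 to 260 RPM, with a log2 fold change of 1.06 (SE 0.17) and an edgeR adjusted p of 0.00881. Both stayed past the threshold under the 15 alternatives tried. MIR125B1, a miRNA known in mammals to target tumour necrosis factor, rose at 2 loci. The log2 fold change at ENSDARG00000080032 was 0.47 (SE 0.12), with an edgeR adjusted p of 0.0466, and this call was lost in 8 of the 15 alternatives, among them the fit with the replicate number as a block (adjusted p = 0.0889 over a range of 0.00866 to 0.177) and those without control 1, control 2, injured 1, injured 2 or injured 3. The log2 fold change at ENSDARG00000081350 was 0.41 (SE 0.09), with an edgeR adjusted p of 0.0328, and this call was lost in 7, among them those without any single control, without injured 2 or without injured 3. The count of 4 fell to 2 without control 1, control 2, injured 2 or injured 3 and also with DESeq2 size factors or upper-quartile scaling. That count of 4 includes both MIR125B1 loci. Another expressed mir-125b copy, mir125b-3, had means of 400 RPM in control and 397 RPM in injured libraries (log2 fold change −0.05, SE 0.09) and was not called. It was among the other 10 expressed loci, copies of mir-9, mir-132, mir-212 and mir-125b. These 10 had log2 fold changes from −0.34 to 0.34 and did not pass the test. The fold changes of both miR-146 loci lay above this range. The range holds only loci that were not called, and the members were chosen with their rise known. Their place above it is therefore no comparison of the family with the list.

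Since miR-146 is abundant in leucocytes, the markers of other cell types were placed beside it. These lists too were chosen with earlier results of these data known. Of the 4 leucocyte loci, MIR223 and mir150 were at 0 reads throughout, and 2 loci named MIR142 (ENSDARG00000082167 and ENSDARG00000082467) were expressed. miR-142 is known as a miRNA of blood-derived cells, microglia included. Their summed level was 1306, 2156 and 1844 RPM in control 1, 2 and 3. It was 2606, 4222 and 3804 RPM in injured 1, 2 and 3, so the groups did not overlap. Both loci rose by edgeR's test, with log2 fold changes of 0.99 (SE 0.24, adjusted p = 0.0382) and 0.91 (SE 0.21, adjusted p = 0.0328). Both calls were lost in 6 of the 15 alternatives, without control 1, control 2, control 3, injured 2 or injured 3, and by limma-voom. In edgeR's fit with the replicate number as a block, both calls stayed, with adjusted p = 0.0014 and 0.0021. Of all 188 expressed loci, 10.6% were called higher by this test and 17.0% had all injured libraries above all control libraries.

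Per read of the MIR142 loci there were 0.655, 0.518 and 0.486 reads of mir146a in control 1, 2 and 3. In injured 1, 2 and 3 there were 2.05, 1.00 and 1.23, so the groups did not overlap. The same quotient for dre-mir-146b-1 was 0.396, 0.276 and 0.307 in the control libraries and 0.383, 0.227 and 0.249 in the injured ones. These groups overlapped, with means of 0.326 ± 0.0621 and 0.286 ± 0.0842 (SD, n = 3 each). Both quotients reuse the miR-146 levels that were known when the members were chosen, so they are descriptions. The group means of mir146a had a ratio of 4.97 and those of dre-mir-146b-1 of 1.73, while the mean MIR142 sum went from 1769 to 3544 RPM. The quotients carry these known differences, and the share of all loci whose quotient separates the groups was not determined. Among the controls the MIR142 loci had the order of both miR-146 loci, highest in control 2, then control 3, then control 1. Among the injured libraries, injured 1 had the lowest MIR142 level and the highest level of both miR-146 loci. The part of leucocyte number in either paralogue's level was not tested.

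**Figure D5:**
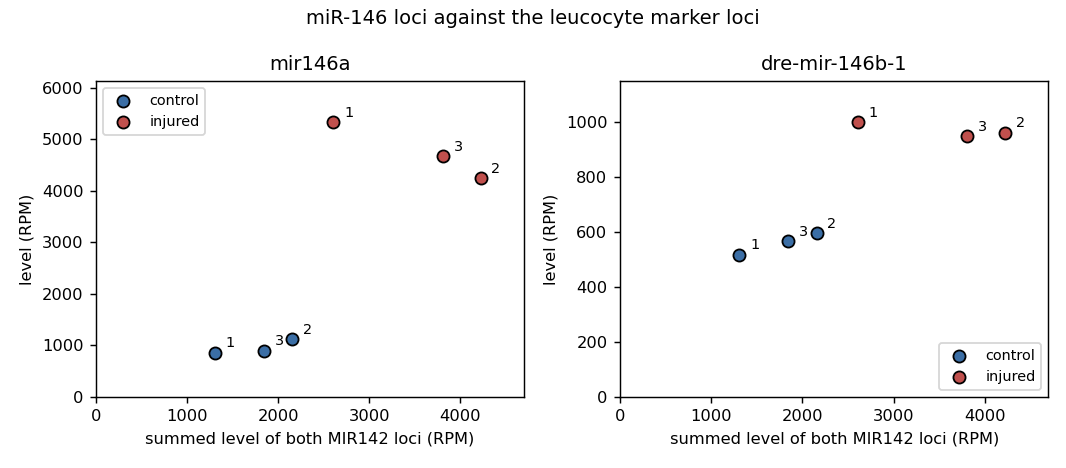
Level of mir146a (left) and dre-mir-146b-1 (right) against the summed level of both MIR142 loci, in RPM on linear axes from 0, with 1 point per library labelled with its replicate number. The control libraries stand in the same order on both axes, whereas injured 1 has the lowest MIR142 level of the injured libraries, 2606 RPM, and the highest mir146a level, 5331 RPM.

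The other marker lists gave few calls. The erythrocyte loci MIR144 and MIR451A summed to 2006 to 2506 RPM in control and 2326 to 2754 RPM in injured libraries, and neither was called. The endothelium loci summed to 7791 to 8098 and 7736 to 7819 RPM, and neither was called. Most of this sum was mir126a. MIR126 varied more, with 154, 636 and 641 RPM in control 1, 2 and 3 and 718, 620 and 666 RPM in injured 1, 2 and 3. The 8 muscle loci stayed at 3.05 to 5.25 and 4.12 to 6.19 RPM. Of the 22 expressed loci of the neuron and progenitor list, which shares the mir-9 loci with the list above, 1 fell and 0 rose. It was mir128-1, whose log2 fold change of −0.40 (SE 0.07) had an edgeR adjusted p of 0.0157. The call was lost without control 1, control 2, control 3 or injured 3. Of all 188 expressed loci, 2.13% were called lower and 10.6% higher, so this single call is no result about neuronal loci as a set.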

How the data were processed

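Per the study's methods, the authors used Cutadapt to remove adaptors, retained reads as long as mature miRNAs, mapped them to GRCz11 with STAR without soft clipping and counted reads at annotated miRNA loci with HTSeq in union mode. The labels' processing notes name BWA in place of STAR, and a total RNA kit in place of the small RNA kit of the methods. The deposited values are raw counts per locus, 1 table per library. HTSeq summary lines were left out, and reads outside miRNA loci were 11.4% to 12.3% of each library. The authors' limit on mapping quality can undercount a locus whose mature sequence occurs elsewhere too. Mature sequences were not used here.

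RPM are counts per 1000000 reads at miRNA loci. edgeR 4.0.16 in R 4.3.3 was fitted with the group as the only term to the 188 loci with a mean TMM-normalised count above 10, two-sided, with Benjamini-Hochberg adjustment and a threshold of 0.05. The SE is the fold change divided by the root of its F statistic. Likeness used log2 values with a prior count of 2. The named loci are both members, the 5 loci most like each, and called members of the lists. Some members of the lists that were not called are named beside them. mir128-1 is named as a single call, and the loci ranked ahead of mir146a were named after their values were seen. The members and lists were chosen with earlier results of these data known. Alternatives were other scalings, DESeq2 1.42.0, limma-voom (limma 3.58.1), other filters, thinning to equal depth, the replicate number as a block and leaving out each library.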

Additional observations from a re-analysis of the deposited data

How the results depend on the processing

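Of 72 values for the levels, folds, shares and ratio of the miR-146 loci under alternatives, 71 moved by less than the replicate SD and 0 changed sign. The exception was the log2 fold change of dre-mir-146b-1 under upper-quartile scaling, 0.65. Some of the 72 could not move, and others could not move by more than the SD. Leaving out a control library cannot change the share or summed level in the injured libraries, nor the reverse. With 3 libraries in a group, leaving out 1 moves the group mean by less than the group's SD by arithmetic. There the shares, summed levels and ratio difference could not exceed the SD, so the count of 71 is no measure of stability. Leaving out 1 library gave 2.20 to 2.36 for mir146a, 0.71 to 0.78 for dre-mir-146b-1 and 1.46 to 1.59 for the difference in log2 ratio. Thinned to the smallest library (median of 20 draws), these were 2.27, 0.75 and 1.52. Random thinning keeps the proportions of a library apart from counting error, so these values could hardly move either. The part of depth, which did not overlap between the groups, was not tested. The same-numbered libraries deviated together with correlations of 0.32, 0.12 and 0.08. Control and injured libraries of unlike number had −0.20 to 0.06, so every same-numbered pair lay above all of these. No source ties a number to a fish. The libraries were therefore not taken as pairs, although a pairing is possible, and the main edgeR calls are those of an unpaired fit. With the replicate number as a block, the log2 fold changes were 2.28 and 0.76 and 22 loci were called. The ratio difference of 1.52 is the same with a block by arithmetic, since the groups are of equal size.

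edgeR called 24 loci in all, DESeq2 31, edgeR with upper-quartile scaling 16, and edgeR 10 to 24 without 1 library (10 without control 1, control 3 or injured 3; 14 without control 2). The list of inflammation miRNAs had 4 calls higher, 2 with DESeq2 size factors, 2 with upper-quartile scaling and 2 to 3 without 1 library. The cause was not tested. For 13 other named loci called by edgeR, 49 values under alternatives missed the threshold and 0 changed sign. By difference of log2 fold changes alone, 2 of the 5 loci most like mir146a and 3 of the 5 most like dre-mir-146b-1 were shared. Depth limits the control libraries most, with 1357 reads at the lowest count of a miR-146 locus.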
